A study of Mus musculus with 29 samples.

Results

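The colon takes up amino acids and small peptides through carrier proteins of the solute carrier families, and the transcripts of 10 of these carriers were followed here across 6 mouse models of colitis. The genes were chosen by name, as the rows of the deposited count table whose Ensembl identifier belongs to Slc6a14, Slc15a1, Slc3a2, Slc7a5, Slc7a11, Slc1a5, Slc7a1, Slc7a2, Slc3a1 or Slc7a9. All 10 were found among the 54532 genes of the table, and all 10 passed the filter on low counts that left 18616 genes for testing.

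RNA of colon segments from 29 mice was sequenced as poly(A) RNA, with 1 library per mouse. The untreated wild-type controls were labelled Balb/C (n = 3, mice 1, 2 and 4). They are the control group of 3 models in labelled Balb/C mice. DSS, dextran sulfate sodium, injures the epithelium and was given at 3% in the drinking water for 5 days, with culling on day 10 (n = 3, mice 5, 6 and 8). DNBS, a hapten, was given rectally at 3 mg in ethanol (n = 3, mice 11, 14 and 16). The anti-IL10 mice (n = 4, mice 1, 2, 3 and 4) carry a label for an antibody that blocks IL10, while the protocol gives 750 µg of an antibody against its receptor and culling after 4 weeks or at signs of colitis. TRUC mice, untreated and labelled Balb/C Tbx21-/- x Rag2-/- (n = 4, mice 2, 3, 4 and 5), were compared with untreated mice labelled Balb/C Rag2-/- (n = 3, mice 1, 2 and 4), so that both groups carry the Rag2 deletion by label. The last control group is labelled untreated C57BL/6 Rag1-/- (n = 3, mice 2, 3 and 4). It serves the TCT mice, labelled C57BL/6 Rag1-/- recipients of naive CD4 T cells culled after 6 to 8 weeks (n = 3, mice 1, 3 and 5), and the anti-CD40 mice, labelled C57BL/6 Rag1-/- and given 50 µg of an agonist antibody 7 days before culling (n = 3, mice 6, 7 and 8). The study's methods name other mice for some models (C57Bl6 for DSS, Il10-/- for the IL-10 model), and the protocol names Rag2-/- recipients for TCT. Ages and the position of the colon segment are not given in the labels. The labels do not say which mice shared a litter or cage, and the tests treat each mouse as independent. The study describes the colitis of TRUC mice as communicable. The spread behind the p-values was estimated over all 9 groups together.

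Amino acid carriers differ in what drives them. Slc6a14 and Slc15a1 sit on the luminal side of the epithelium and concentrate amino acids or di- and tripeptides with the help of ion gradients, whereas most Slc7 carriers are exchangers or facilitators. Several Slc7 proteins reach the membrane only when paired with a heavy chain, Slc3a2 (also called CD98) or Slc3a1 (also called rBAT). In activated immune cells and dividing epithelium such carriers supply leucine to mTORC1, cystine to glutathione synthesis and arginine to nitric oxide synthase and arginase.

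Total counts per library ran from 10725564 to 14977094, and levels are given as CPM, counts scaled to the size of each library after TMM normalization, listed in the order of the mouse numbers above. A single library that stood apart in each of 3 groups touches several results. Anti-IL10 mouse 4 had 1.25 CPM summed over Hoxa13, Hoxb13 and Hoxd13, transcripts that mark the posterior colon, against 419 CPM in mouse 3, 767 and 802 CPM in mice 1 and 2 and 710 to 923 CPM in the wild-type controls. DSS mouse 8 had 1818 CPM summed over 6 neutrophil transcripts, against 190.4 and 346 CPM in the other DSS mice, and anti-CD40 mouse 7 had 191 CPM of them against 32.9 and 36.9 CPM in the other anti-CD40 mice. Whole-gene counts do not test a partial deletion, and Rag2 had more counts in the Rag2-/- controls (15 to 25) and TRUC (57 to 94) than in wild-type controls (at most 1), while Tbx21 had 26 to 52 counts in TRUC against 1 to 7 in its controls. The libraries labelled Rag1-/- control (6 to 20) and anti-CD40 (48 to 99) also held Rag2 counts, with at most 4 counts of Rag1, whereas the TCT libraries had 0 of Rag2 and 20 to 33 of Rag1. Libraries that share the Rag1-/- label thus differ in these genes. The controls and anti-CD40 held Rag2 counts as the Rag2-/- groups did, and TCT did not. Comparisons of TCT and anti-CD40 with this control rest on the labels. A difference of genotype or strain between TCT and its control, if there is one, cannot be told apart from the cell transfer. Epithelial transcripts (Epcam, Cdh1, Vil1, Krt8 and Krt20) summed to at least 5201 CPM in every library, whereas the 6 transcripts of a small intestine list were mixed. Sis, Lct and Apoa4 had mean counts below 3, but Rbp2 was at 32.6 CPM (mean) in the wild-type controls, Fabp6 reached 61 CPM in a DNBS mouse and Alpi 31.9 CPM in an anti-IL10 mouse. In bulk tissue, fewer cells of a type and less RNA per cell cannot be told apart.

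The transporters did not move as a block. Past an adjusted p of 0.05 in edgeR's quasi-likelihood test, 3 of 10 rose and 3 fell in TRUC, where 22.4% of all tested genes rose and 23.4% fell. In DSS 5 rose and 3 fell (17.7% and 16.3% of all genes). In DNBS 1 rose and 0 fell (3.95% and 2.21%). In anti-IL10 5 rose and 2 fell (27.2% and 26.1%). In TCT 3 rose and 3 fell (16.1% and 14%), and in anti-CD40 3 rose and 1 fell (10.9% and 10.7%). Counted by groups that did not overlap, 5 of 10 were higher and 3 lower in TRUC (28.8% and 29.2% of all genes), 5 and 3 in DSS (25.9% and 24%), 3 and 3 in DNBS (15.6% and 16.9%), 5 and 2 in anti-IL10 (27.6% and 28%), 3 and 3 in TCT (21.4% and 21.7%) and 3 and 2 in anti-CD40 (19.2% and 20.4%). In the same order of models, the 10 genes had median log2 fold changes of 0.5, 1, 0.037, 0.27, 0.22 and 0.31, beside medians over all tested genes of -0.03, 0.024, 0.01, -0.014, 0 and -0.028. Slc7a5 rose in all 6 models and Slc7a11 in 5, while Slc1a5 fell in 5 and Slc15a1 in 4. The sign of the log2 change varied with the model for Slc3a2 (above 0 in 3 models and below in 3), Slc7a2 (4 and 2) and Slc6a14 (1 and 5), and did not vary for the others. Of all tested genes, 4.08% rose in at least 5 models and 2.84% fell in at least 5, and 1.07% rose and 0.612% fell in all 6.

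**Figure D1:**
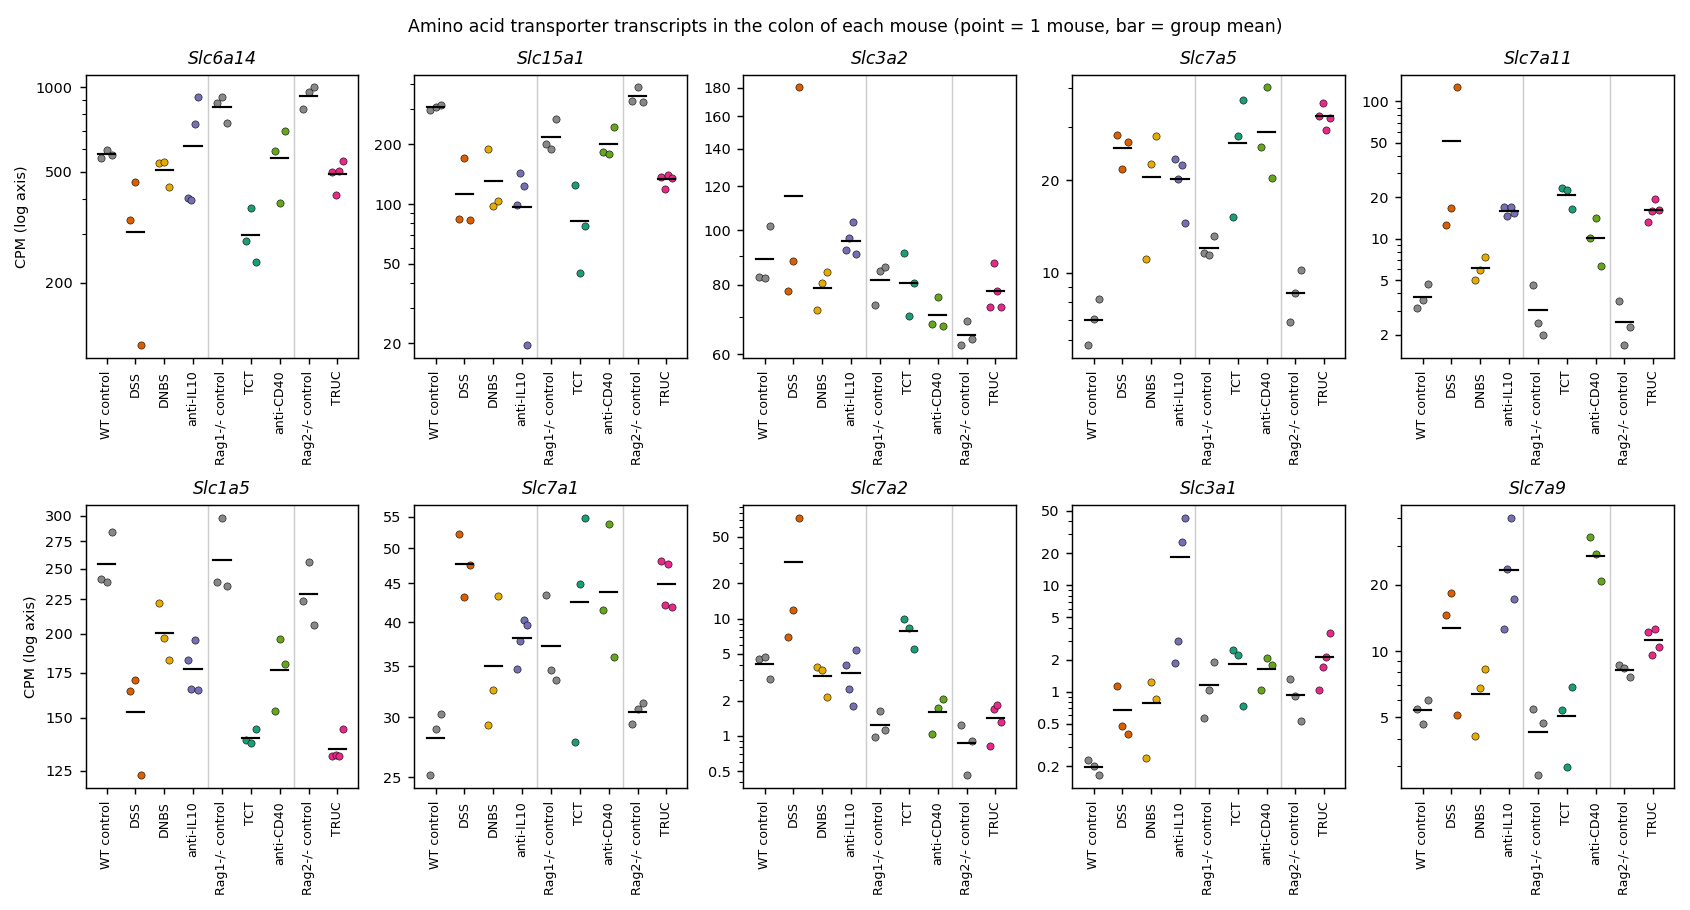
Level of each transporter in each of the 29 mice, with 1 panel per gene. The vertical axis is CPM on a log axis that differs between panels, points are mice, bars are group means and grey points are control mice. Slc7a5 and Slc7a11 sit above their controls in each model, Slc1a5 sits below, and the Slc3a1 points of 2 anti-IL10 mice reach 25.6 and 43.0 CPM.

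**Figure D2:**
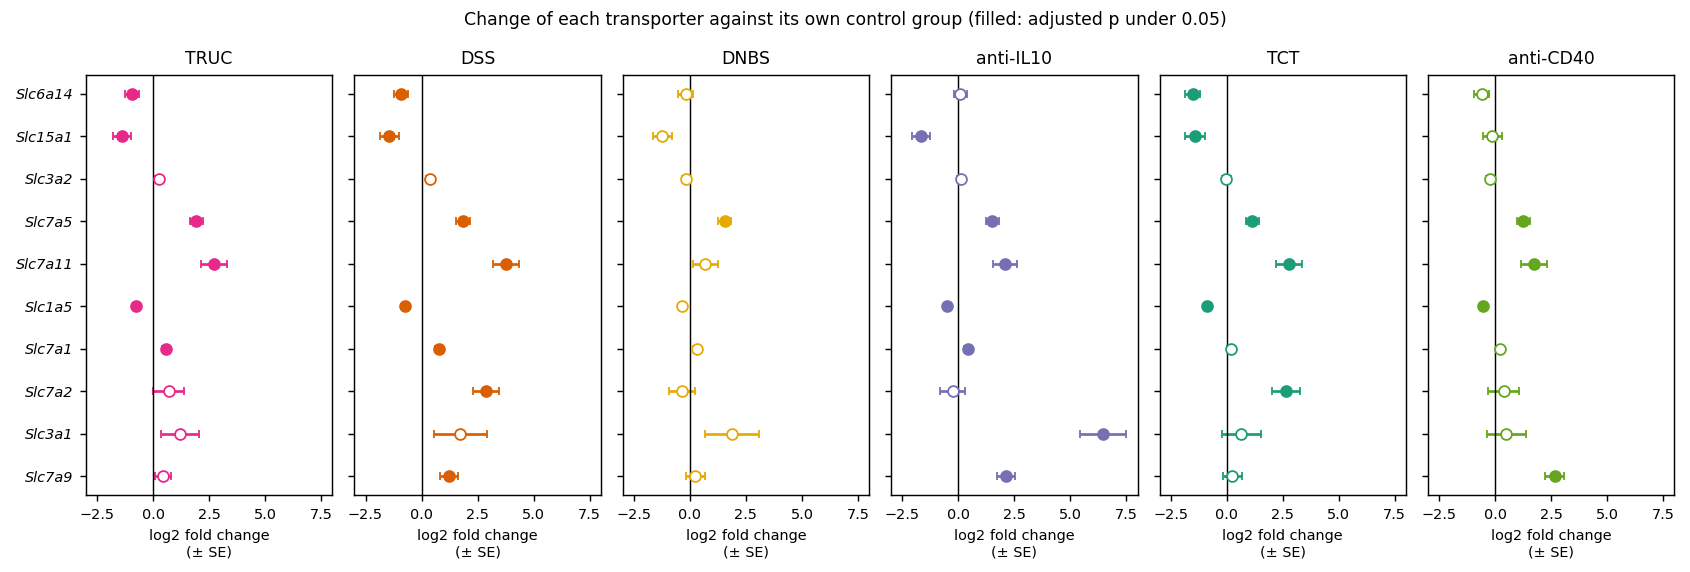
Log2 fold change of the 10 transporters in each model against its own control group, with bars of 1 SE and filled points where the adjusted p of edgeR's quasi-likelihood test is under 0.05. Filled points lie to the right for Slc7a5 in 6 panels and to the left for Slc1a5 in 5, and the Slc3a1 point of anti-IL10 lies at 6.46.

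Both luminal carriers were among the more abundant of the 10 genes and fell in several models. Slc6a14 (chrX:21714896-21742355, plus strand, GRCm38) encodes a sodium- and chloride-driven carrier of neutral and cationic amino acids. Its level was 497, 412, 501 and 545 CPM in TRUC and 839, 965 and 999 CPM in the Rag2-/- controls, without overlap. Slc6a14 fell in TRUC, by 0.94 (log2, SE 0.30, adjusted p = 0.015). The libraries labelled TCT held 283, 369 and 238 CPM, all below the 878, 923 and 744 CPM of their controls. There the gene fell by 1.52 (log2, SE 0.34, adjusted p = 0.00129). In the libraries labelled anti-CD40 the levels were 593, 385 and 696 CPM, also below every control, but the change of -0.60 (log2, SE 0.33, adjusted p = 0.194) did not pass in the fit over all groups. When only these 2 groups were fitted it passed, with an adjusted p of 0.045 in edgeR and 0.0177 in DESeq2. The wild-type controls held 557, 598 and 574 CPM. In DSS the mice had 335, 459.9 and 119.9 CPM, again without overlap, and the gene fell by 0.92 (log2, SE 0.33, adjusted p = 0.0347). Without DSS mouse 8, which had the lowest level, the value was -0.53 with an adjusted p of 0.186, and the call was also lost without any 1 of the 3 wild-type controls (adjusted p 0.0602 to 0.0708) and with only the 2 groups fitted (0.146 in edgeR and 0.0775 in DESeq2). DNBS mice (536, 539.9 and 439 CPM) lay just below every control, with a change of -0.19 (log2, SE 0.33, adjusted p = 0.759). Anti-IL10 mice fell into low and high values (402, 395, 738 and 924 CPM), with the controls between them and a change of 0.09 (log2, SE 0.31, adjusted p = 0.817) over the whole group. Mice 3 and 4, the high ones, had 3149.5 and 3889 CPM summed over 5 transcripts of mature colonocytes, against 807 and 1401 CPM in mice 1 and 2. Most of the sum in mouse 4 was a single transcript, Car1, at 3442 CPM. Its sum therefore does not show that the rest of the list was high. The part of this list in the result was not tested.

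Slc15a1 (chr14:121459621-121505252, minus strand), the proton-driven carrier of di- and tripeptides also called PepT1, is best known from the small intestine. The wild-type controls were close to each other at 297, 308 and 314 CPM. Anti-IL10 mice had 99.2, 143, 124 and 19.6 CPM, all below the controls, and Slc15a1 fell by 1.67 (log2, SE 0.40, adjusted p = 0.0013). Mouse 4, whose posterior Hox transcripts were near 0, had the lowest level of all 29 mice. Without it the fall was 1.33 (adjusted p = 0.000791), so the call did not rest on that mouse. In DSS (83.8, 171 and 83.6 CPM) Slc15a1 fell by 1.44 (log2, SE 0.43, adjusted p = 0.0125), and without DSS mouse 8 the change was -1.27 with an adjusted p of 0.068. DNBS mice had 189, 98.1 and 103 CPM, all below the controls, with a change of -1.24 (log2, SE 0.43, adjusted p = 0.0821) that did not pass. The DNBS change passed when anti-IL10 mouse 4 (-1.23, adjusted p 0.013) or DNBS mouse 11 (-1.61, adjusted p 0.0342) was left out of the fit, and when only the 2 groups were fitted (adjusted p 0.0454 in edgeR and 2.79e-05 in DESeq2). TRUC mice held 137, 119, 140.5 and 135 CPM against 329.6, 386 and 327 CPM in the Rag2-/- controls, and the gene fell by 1.39 (log2, SE 0.40, adjusted p = 0.0064). The libraries labelled TCT held 124, 45 and 77.3 CPM against 200.5, 188 and 267 CPM, a fall of 1.41 (log2, SE 0.43, adjusted p = 0.0159) that was lost without TCT mouse 3 (adjusted p 0.0904), TCT mouse 5 (0.0568) or Rag1-/- control mouse 4 (0.0586). Only the libraries labelled anti-CD40 overlapped their controls, at 183, 178 and 243 CPM and a change of -0.12 (log2, SE 0.42, adjusted p = 0.876). The 5 mature colonocyte transcripts fell with these carriers in part, as 5 of 5 fell in TRUC, 3 in TCT, 2 each in DSS, anti-IL10 and anti-CD40, and 0 in DNBS (0 rose in any model). Their summed level was 405 to 1132 CPM in TRUC and 3516 to 4385 CPM in its controls, and its part in the fall of Slc6a14 and Slc15a1 was not tested.

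The heavy chain Slc3a2 (chr19:8706882-8723369, minus strand) carries the light chains Slc7a5 and Slc7a11 to the cell surface. Its level was 82.5, 82.2 and 102 CPM in the wild-type controls, 73.6, 84.6 and 86.1 CPM in those labelled Rag1-/- and 62.3, 68.9 and 63.8 CPM in the Rag2-/- controls. Slc3a2 passed the test in no model, and its log2 fold change lay between -0.21 in anti-CD40 and 0.38 in DSS. DSS mouse 8 alone had 180.3 CPM, against 77.9 and 88 CPM in the other DSS mice, and without it the change was -0.10. Without DSS mouse 5 or 6 instead, the change passed (0.59 and 0.54, adjusted p 0.0152 and 0.0373). In TRUC the 4 mice (72.9, 87.5, 77.8 and 73 CPM) did not overlap their controls, with a change of 0.26 (log2, SE 0.18, adjusted p = 0.249). That change passed when only the 2 groups were fitted (adjusted p = 0.0225 in edgeR and 0.0176 in DESeq2) and when DSS mouse 8 was left out of the fit (0.042).

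Slc7a5 (chr8:121881150-121907694, minus strand), also called LAT1, exchanges large neutral amino acids such as leucine for glutamine. It rose in all 6 models, and no colitis mouse overlapped its control group. The wild-type controls had 5.79, 7.06 and 8.2 CPM. DSS mice had 28.3, 21.7 and 26.6 CPM, a rise of 1.86 (log2, SE 0.31, adjusted p = 8.53e-05). DNBS mice had 11.1, 22.6 and 28 CPM, a rise of 1.54 (log2, SE 0.31, adjusted p = 0.00578), in which mouse 11 lay nearest to the controls. Anti-IL10 mice had 23.4, 20.3, 22.4 and 14.5 CPM, a rise of 1.52 (log2, SE 0.29, adjusted p = 0.000171). TRUC mice were close to each other at 32.6, 35.9, 29.2 and 32 CPM against 6.91, 8.57 and 10.2 CPM, a rise of 1.92 (log2, SE 0.29, adjusted p = 2.28e-05). The controls labelled Rag1-/- held 11.6, 11.4 and 13.2 CPM. The libraries labelled TCT held 15.2, 28 and 36.6 CPM and those labelled anti-CD40 25.7, 40.3 and 20.3 CPM. Slc7a5 rose by 1.14 (log2, SE 0.30, adjusted p = 0.00506) in TCT and by 1.25 (log2, SE 0.30, adjusted p = 0.0046) in anti-CD40. These calls were lost without TCT mouse 5 (adjusted p 0.0547) and without anti-CD40 mouse 7 (0.0561), the mouse highest in neutrophil transcripts of its group, whose part in the result was not tested, and the call in DNBS was lost in edgeR on the 2 groups alone (0.0512). A difference of the change between the 6 models was not detected for Slc7a5 (F test of equal contrasts, adjusted p = 0.402).

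The light chain Slc7a5 was also read against its heavy chain Slc3a2. Per kilobase of exon, the ratio of the Slc7a5 level to the Slc3a2 level had a median of 0.0766 in the wild-type controls, 0.118 in the Rag2-/- controls and 0.145 in the controls labelled Rag1-/-. The medians were 0.404 in TRUC, 0.378 in TCT, 0.36 in anti-CD40, 0.266 in DNBS, 0.235 in DSS and 0.202 in anti-IL10. The ratio of each colitis mouse exceeded those of all its controls, the narrowest gap being between TCT mouse 1 at 0.159 and the highest of its controls at 0.15. Slc3a2 transcripts were more abundant than Slc7a5 transcripts per kilobase in every mouse, the highest ratio being 0.505 in anti-CD40 mouse 7.

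**Figure D3:**
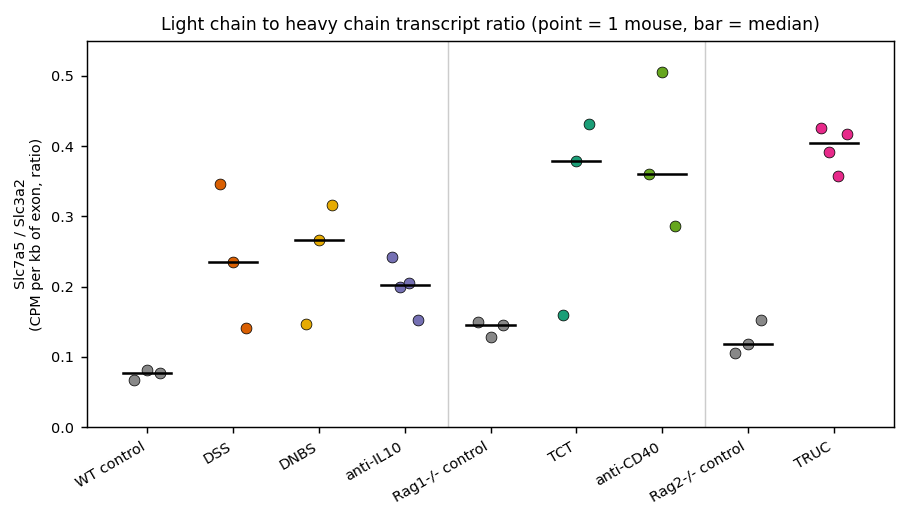
Ratio of Slc7a5 to Slc3a2 transcripts, each as CPM per kilobase of exon, in each mouse. Bars are group medians, grey points are controls and vertical lines divide the 3 sets of groups that share a control. Colitis mice lie above their own controls in each set, from 0.141 in DSS mouse 8 to 0.505 in anti-CD40 mouse 7.

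Slc7a11 (chr3:49892526-50443614, minus strand), also called xCT, brings in cystine in exchange for glutamate. The gene is a known target of ATF4, which binds C/EBP-ATF response elements when amino acids are scarce. The 250 bases before its RefSeq start (chr3:50443614-50443863, minus strand, GRCm38.p6) are shown because they hold 2 such elements, which the capitals mark.
Slc7a11 promoter: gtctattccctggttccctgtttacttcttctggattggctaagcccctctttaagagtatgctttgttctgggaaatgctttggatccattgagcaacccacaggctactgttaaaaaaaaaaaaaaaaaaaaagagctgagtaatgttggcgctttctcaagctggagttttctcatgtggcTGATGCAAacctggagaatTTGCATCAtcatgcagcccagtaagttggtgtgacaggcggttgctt
One element reads TGATGCAA from base -66 and the other is the reverse complement TTGCATCA from base -47. The motif TGATGNAA, searched on both strands, was found in 3.97% of 32851 promoters of 300 bases, each from 250 bases before to 50 after a start. RefSeq promoters were found for 7 of the 10 transporters (none of Slc7a5, Slc7a2 or Slc1a5), and of these only that of Slc7a11 held this motif. Of the other motifs searched, TGACNNNGC (12.4% of promoters) was found before Slc7a1, TTCNNNGAA (8.3%) at Slc7a11 and at a second start of Slc7a1, and CACGTG (7.15%) and the HNF1 motif (0.00913%) at none. These are matches of letters, not measured binding.

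The level of Slc7a11 was low in every control mouse, at 3.12, 3.6 and 4.68 CPM in the wild-type controls, 4.62, 2.43 and 1.98 CPM in those labelled Rag1-/- and 3.54, 1.68 and 2.27 CPM in the Rag2-/- controls. It rose in 5 models, and all colitis mice lay above their own controls. The DSS mice had 12.7, 16.7 and 126 CPM, a rise of 3.77 (log2, SE 0.58, adjusted p = 4.91e-05). Mouse 8 decided the size of this value: without it the rise was 1.95 with an SE of 0.31 (adjusted p = 0.000137). Anti-IL10 mice were alike at 17, 14.7, 17 and 15.5 CPM, a rise of 2.08 (log2, SE 0.54, adjusted p = 0.00273). TRUC mice had 13.3, 15.9, 19.5 and 16.2 CPM, a rise of 2.71 (log2, SE 0.57, adjusted p = 0.000592), and the libraries labelled TCT had 23.4, 22.6 and 16.4 CPM, a rise of 2.78 (log2, SE 0.58, adjusted p = 0.000746). The libraries labelled anti-CD40 had 10.1, 14.1 and 6.32 CPM. Slc7a11 rose there by 1.75 (log2, SE 0.58, adjusted p = 0.0328), a call that was lost without anti-CD40 mouse 6 (adjusted p 0.0647) or 7 (0.155), which was again the highest of its group, or Rag1-/- control mouse 3 (0.118) or 4 (0.115). DNBS mice, at 5.02, 5.97 and 7.42 CPM, lay just above the controls, with a change of 0.69 (log2, SE 0.57, adjusted p = 0.475). The change differed between the models (adjusted p = 0.000824). Markers of myeloid cells also rose. Of the neutrophil transcripts, 6 of 6 rose in TRUC, DSS, DNBS, anti-IL10 and TCT and 4 of 6 in anti-CD40. Their summed level was at most 2.11 CPM in any control. It was 22.2 to 108 CPM in DNBS, where Slc7a11 did not pass, and 32.9 to 191 CPM in anti-CD40. TCT had 112 to 264 CPM, anti-IL10 133 to 342 CPM, DSS 190 to 1818 CPM and TRUC 757 to 1258 CPM. Mean Slc7a11 was 20.8 CPM in TCT and 16.2 CPM in TRUC, with overlap. Of 6 monocyte and macrophage transcripts, 6 rose in TRUC and DSS, 5 in TCT, 3 in anti-IL10, 2 in anti-CD40 and 0 in DNBS. DSS mouse 8 was highest in Slc7a11 and in both summed lists (1818 and 2543 CPM). The part of these cells in the rise of Slc7a11 was not tested.

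Slc1a5 (chr7:16781340-16798274, plus strand), also called ASCT2, exchanges glutamine for other neutral amino acids. It fell in 5 of the 6 models, in each of which Slc7a5 and Slc7a11 rose. The Rag2-/- controls had 224, 256 and 206 CPM and TRUC mice 132, 132, 132 and 144 CPM, a fall of 0.76 (log2, SE 0.12, adjusted p = 2.65e-05). The wild-type controls had 242, 239 and 283 CPM, DSS mice 165, 171 and 123 CPM and anti-IL10 mice 183, 165, 196 and 165 CPM. Slc1a5 fell by 0.74 (log2, SE 0.13, adjusted p = 0.000141) in DSS and by 0.52 (log2, SE 0.12, adjusted p = 0.000785) in anti-IL10. DNBS mice (223, 197 and 183 CPM) lay below every control mouse, but the change of -0.34 (log2, SE 0.13, adjusted p = 0.101) did not pass, except without DNBS mouse 11 (-0.42, adjusted p 0.0486). The controls labelled Rag1-/- had 239, 298 and 236 CPM, the libraries labelled TCT 139, 137 and 144 CPM and those labelled anti-CD40 153, 196 and 180.1 CPM. The falls there were 0.88 (log2, SE 0.13, adjusted p = 1.23e-05) and 0.54 (log2, SE 0.13, adjusted p = 0.00414). No colitis mouse overlapped its own controls for this gene in any of the 6 models. The 5 called falls held without each mouse in turn. The change differed between the models (adjusted p = 0.0207), a call that was lost without DNBS mouse 11 (0.0599).

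The 2 carriers of cationic amino acids, which supply arginine, behaved differently. Slc7a1 (chr5:148327410-148399904, minus strand), or CAT1, is the widely expressed one. Wild-type controls had 25.1, 29 and 30.3 CPM and DSS mice 52.2, 43.1 and 47.6 CPM, a rise of 0.76 (log2, SE 0.18, adjusted p = 0.00256). The Rag2-/- controls had 29.4, 30.8 and 31.3 CPM and TRUC mice 48.1, 42.2, 47.6 and 41.9 CPM, a rise of 0.56 (log2, SE 0.17, adjusted p = 0.0107). Anti-IL10 mice had 34.7, 37.7, 40.2 and 39.6 CPM, without overlap. Slc7a1 rose there by 0.44 (log2, SE 0.17, adjusted p = 0.0362), a call that was lost without anti-IL10 mouse 2, 3 or 4 or without wild-type control 1 or 2, with adjusted p of 0.0529 to 0.152. The DNBS change was 0.31 (log2, SE 0.18, adjusted p = 0.293). In TCT (27.9, 44.9 and 54.9 CPM) and anti-CD40 (41.5, 53.8 and 36 CPM) the mice overlapped the controls at 43.4, 34.6 and 33.6 CPM, with changes of 0.19 (log2, SE 0.18, adjusted p = 0.456) and 0.23 (log2, SE 0.18, adjusted p = 0.377). A difference between the models was not detected for Slc7a1 (adjusted p = 0.17).

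Slc7a2 (chr8:40862396-40922308, plus strand), or CAT2, is known as the inducible arginine carrier of macrophages. It was called in 2 models only. DSS mice had 6.92, 11.9 and 72.6 CPM against 4.5, 4.73 and 3.03 CPM in the wild-type controls, a rise of 2.89 (log2, SE 0.58, adjusted p = 0.000576). The size again came from mouse 8, without which the rise was 1.2 (adjusted p = 0.0337), and the call was lost in edgeR on the 2 groups alone (0.0558). The part of the macrophage and neutrophil transcripts that were also highest in mouse 8 was not tested. The libraries labelled TCT had 9.87, 8.29 and 5.47 CPM against 0.973, 1.62 and 1.12 CPM, a rise of 2.65 (log2, SE 0.64, adjusted p = 0.00264). Set against the wild-type controls instead, the same TCT libraries differed by 0.94 with an adjusted p of 0.213. The other changes were 0.69 (log2, SE 0.69, adjusted p = 0.431) in TRUC, -0.34 (log2, SE 0.58, adjusted p = 0.761) in DNBS, -0.26 (log2, SE 0.55, adjusted p = 0.717) in anti-IL10 and 0.39 (log2, SE 0.68, adjusted p = 0.733) in anti-CD40. The change differed between the models (adjusted p = 3.25e-05). Slc7a2 was also the only one of the 10 genes whose level differed between the 3 control groups (adjusted p = 0.0392, where 11.4% of all genes did), with the Rag2-/- controls at 1.24, 0.459 and 0.906 CPM. This call was lost in 7 of the 29 refits that left out 1 mouse (adjusted p 0.0523 to 0.138), each time a control, and Slc3a2 joined it without DSS mouse 8 (0.0158). Slc7a2 shares 6.42% of the 50-base windows of its exons with other genes, so part of its reads could have been placed elsewhere.

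The last pair forms the system for cystine and dibasic amino acids of the kidney and small intestine, in which Slc3a1 is the heavy chain and Slc7a9 the light chain. Slc3a1 (chr17:85028376-85064236, plus strand) was near the limit of detection in most mice, with 2 to 3 counts in each wild-type control (0.229, 0.2 and 0.164 CPM). In anti-IL10 the 4 mice had 1.85, 3.01, 25.6 and 43 CPM, from 22 to 411 counts, all above the controls but far apart from each other. The summed level was 89.7 times that of the wild-type controls (95% exact interval 45.3 to 209, counting error only), and the test gave 6.46 (log2, SE 1.01, adjusted p = 2.06e-05), a value that depends on the 8 control counts. Mouse 4, the highest, was the mouse whose posterior Hox transcripts were near 0, and mouse 3, the next, had the second lowest Hox level of its group. Without mice 3 and 4 together the ratio was 12 (interval 5.64 to 29.2), and the rise still passed (3.54, SE 0.72, adjusted p = 0.000582). Both ratios rest on the wild-type controls, the group with the lowest mean. The controls labelled Rag1-/- had 0.567, 1.03 and 1.89 CPM and the Rag2-/- controls 1.33, 0.918 and 0.529 CPM. Anti-IL10 mouse 1 thus lay within the range of untreated mice labelled Rag1-/-. A difference between the control groups was not detected (F test, adjusted p = 0.309). Of the other small intestine transcripts measured, the summed level of the 6-gene list was 64.2 CPM in mouse 4 and 22 to 45.3 CPM in the other anti-IL10 mice, against 37.3 to 41 CPM in the wild-type controls. Of the 3 genes of this list that were tested, 2 rose and 1 fell in anti-IL10. The kidney transcripts Umod and Slc12a1 had 0 counts in all 4 anti-IL10 mice. Which part of the colon each segment came from cannot be told apart from the treatment in these mice. In the other models Slc3a1 did not pass, with log2 changes between 0.50 in anti-CD40 and 1.87 in DNBS, although all 3 DSS mice (1.13, 0.479 and 0.4 CPM) and all 3 DNBS mice (0.239, 1.24 and 0.853 CPM) lay above the wild-type controls. Slc3a1 overlaps the antisense gene Prepl over 601 bases, 26.5% of its exon length, and whether reads were counted by strand is not given in the sources used here. Prepl itself had means of 43.0 CPM in anti-IL10 and 52.4 CPM in the wild-type controls. In the edgeR fit over all groups its change was -0.29 (log2, SE 0.11, adjusted p = 0.0313). The part of Prepl reads in the Slc3a1 counts was not tested.

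Slc7a9 (chr7:35448796-35466036, plus strand) rose in 3 models, of which anti-IL10 was the only one in which Slc3a1 rose as well. The libraries labelled anti-CD40 held 33, 27.5 and 20.8 CPM against 5.43, 2.73 and 4.73 CPM, a rise of 2.66 (log2, SE 0.42, adjusted p = 0.000143) that held without each mouse in turn. Against the Rag2-/- controls (8.68, 8.42 and 7.63 CPM) these libraries were higher by 1.72 (adjusted p = 0.00354). Anti-IL10 mice had 12.6, 23.6, 40.3 and 17.3 CPM against 5.49, 4.66 and 5.99 CPM, a rise of 2.12 (log2, SE 0.39, adjusted p = 0.000111). Mouse 3 was the highest here and mouse 4 was not, and without mice 3 and 4 the rise was 1.75 (adjusted p = 0.00148). DSS mice had 14.5, 18.4 and 5.12 CPM, in which mouse 8 overlapped the controls. Slc7a9 rose there by 1.24 (log2, SE 0.40, adjusted p = 0.0192), a call that was lost without DSS mouse 5 or 6 or wild-type control 1 or 2 (adjusted p 0.0514 to 0.114) and in edgeR on the 2 groups alone (0.0787). Without mouse 8 the rise was 1.62. TRUC mice (12.2, 9.61, 12.6 and 10.4 CPM) lay above their controls, with a change of 0.44 (log2, SE 0.37, adjusted p = 0.344). The changes in TCT (5.41, 2.99 and 6.86 CPM) and DNBS (4.12, 6.82 and 8.27 CPM) were 0.24 (log2, SE 0.42, adjusted p = 0.706) and 0.24 (log2, SE 0.41, adjusted p = 0.751). The change differed between the models for Slc7a9 (adjusted p = 3.11e-05) and for Slc3a1 (3.18e-05).

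**Figure D4:**
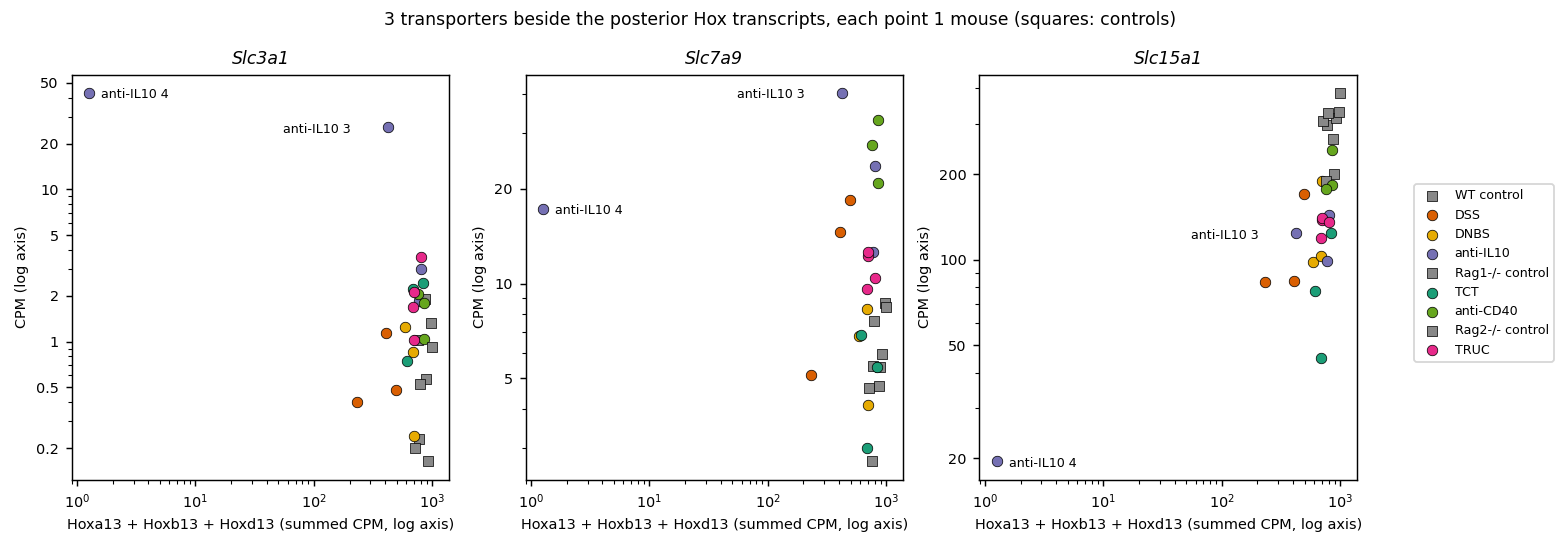
Levels of Slc3a1, Slc7a9 and Slc15a1 (vertical, CPM, log axis) against the summed CPM of Hoxa13, Hoxb13 and Hoxd13 (horizontal, log axis), with 1 point per mouse and squares for controls. Anti-IL10 mouse 4 lies alone at the left, at 1.25 CPM of Hox transcripts, with the highest Slc3a1 (43.0 CPM) and the lowest Slc15a1 (19.6 CPM), while its Slc7a9 (17.3 CPM) lies within the range of other colitis mice.

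Across all 10 genes, 6 differed in their change between the 6 models, where 60.5% of all tested genes did. They were Slc6a14 (adjusted p = 0.011), Slc7a11, Slc1a5, Slc7a2, Slc3a1 and Slc7a9. The test was not passed by Slc15a1 (0.0743), Slc3a2 (0.107), Slc7a5 or Slc7a1. Slc15a1 passed it without anti-IL10 mouse 4 (0.00644) and in 3 other such refits (0.0333 to 0.0477), and Slc3a2 without DSS mouse 5, 6 or 8 (0.0115 to 0.0347). Of the 60 comparisons of a gene in a model, 32 passed the test, 24 of these held in each of the 29 refits that left out 1 mouse, and 0 of the 32 changed sign in any alternative that was run.

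Ordered by mean level, Slc6a14 was highest in the Rag2-/- controls (934 ± 84.2 CPM, SD, n = 3) and lowest in TCT (297 ± 66.8 CPM, SD, n = 3), and each of the 8 pairs of neighbouring groups between them overlapped. The same held for Slc3a2, Slc1a5 and Slc7a1, whose 8 neighbouring pairs also overlapped. Slc1a5 ran from 258 ± 34.9 CPM in the controls labelled Rag1-/- to 135 ± 6.25 CPM in TRUC (SD, n = 3 and 4). Gaps between neighbours were seen for Slc7a5, between anti-IL10 and the controls labelled Rag1-/- and between these and the Rag2-/- controls. For Slc7a11 the gaps lay between anti-IL10 and anti-CD40 and between DNBS and the wild-type controls. For Slc15a1 they lay between the Rag2-/- and the wild-type controls, between the latter and the controls labelled Rag1-/-, and between anti-CD40 and TRUC. Slc7a2 had gaps between TCT and the wild-type controls and between DNBS and anti-CD40, Slc3a1 between DSS and the wild-type controls, and Slc7a9 between TRUC and the Rag2-/- controls. Compared per kilobase of exon in the wild-type controls, Slc6a14 was the most abundant of the 10 at 168 ± 5.98 CPM per kb (SD, n = 3), followed by Slc15a1 at 62.7 ± 1.77 and Slc1a5 at 61 ± 5.95 CPM per kb, which overlapped in spread. Slc3a2 came next at 25.2 ± 3.2 CPM per kb, and Slc3a1 was lowest at 0.087 ± 0.0142 CPM per kb.

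For each transporter, the 2 tested genes with the highest Pearson correlation of log2 CPM over the 29 mice were listed as a description. Mice of 1 group share their treatment and strain, so r over all mice includes differences between the group means. The r over deviations from those means is given second. Either r can rest on few mice. For Slc3a2, DSS mouse 8 was at 180.3 CPM and the others of its group at 77.9 and 88 CPM. For Slc3a1, anti-IL10 mice 3 and 4 were at 25.6 and 43 CPM and mice 1 and 2 at 1.85 and 3.01 CPM. Slc7a5 was most like Ccne1, which encodes cyclin E1 (r = 0.95 and 0.838), and Bysl, a ribosome assembly gene (0.945 and 0.872). Slc7a1 was most like Gar1 (0.922 and 0.865) and Lsm2 (0.896 and 0.855), both RNA-processing genes. Slc7a11 was most like Acod1, which makes itaconate in macrophages (0.967 and 0.846), and Igsf6 (0.95 and 0.888). Slc6a14 was nearest to Hsd17b2 (0.903 and 0.802) and Prkcz (0.894 and 0.885), and Slc15a1 to Mgat4a (0.901 and 0.856) and Slc37a2 (0.87 and 0.743). Slc3a2 was nearest to Gpr15 (0.857 and 0.841) and Grina (0.839 and 0.937), and Slc1a5 to Pck1 (0.921 and 0.545) and Fbxo31 (0.914 and 0.692). Slc3a1 was nearest to Tmigd1 (0.885 and 0.868) and Slc13a1 (0.864 and 0.819), and Slc7a9 to Ces2e (0.815 and 0.735) and Slc44a4 (0.777 and 0.567). For Slc7a2 the pair was the pseudogene Hmgb1-ps8 (0.902 and 0.519) and Olfr1033 (0.901 and 0.557). Among the 10 genes themselves, the highest r was that of Slc7a5 with Slc7a1 (0.846 and 0.75) and the lowest that of Slc7a11 with Slc1a5 (-0.835 and -0.49).

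ATF4 and the genes it induces when amino acids run short were read as a list of 13, all of which were tested. In TRUC 9 rose and 0 fell (22.4% and 23.4% of all tested genes did), in DSS 6 and 0 (17.7% and 16.3%), in DNBS 2 and 1 (3.95% and 2.21%), in anti-IL10 8 and 1 (27.2% and 26.1%), in TCT 4 and 1 (16.1% and 14%) and in anti-CD40 5 and 1 (10.9% and 10.7%). The list medians were 1.02, 0.48, 0.55, 0.81, 0.27 and 0.48 (log2), in the same order. Psat1, of serine synthesis, rose in all 6 models, by 0.98 in TCT to 2.69 in TRUC. Asns (asparagine synthetase), Chac1, which degrades glutathione, and Mthfd2, of mitochondrial folate metabolism, rose in 5, with DNBS the model in which they did not pass. Chac1 had the largest rise of the list in every model but DNBS, from 0.594 ± 0.362 to 11.6 ± 3.91 CPM (mean and SD) in TRUC and from 1.18 ± 0.215 to 15.3 ± 9.3 CPM in anti-IL10. Ddit3, which encodes CHOP, fell in DNBS (-0.91), anti-IL10 (-0.55) and anti-CD40 (-0.81), and Pycr1 fell in TCT (-0.98). Atf4 itself rose in TRUC (0.72), DSS (0.49) and anti-IL10 (0.67).

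**Figure D5:**
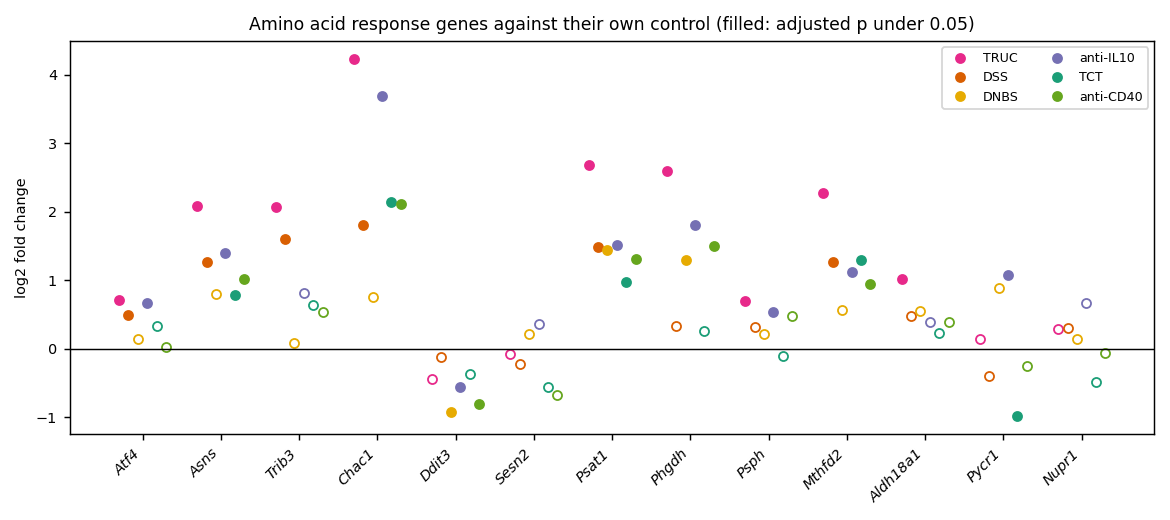
Log2 fold change of Atf4 and 12 genes of the amino acid response in each model against its own control, with filled points where the adjusted p of edgeR's quasi-likelihood test is under 0.05. Psat1 is filled in 6 models, and Chac1 in TRUC is the highest point at 4.24.

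Of 26 tested genes among 29 other amino acid and peptide carriers, 5 rose and 7 fell in TRUC (22.4% and 23.4% of all genes), 5 and 1 in DSS (17.7% and 16.3%), 4 and 1 in DNBS (3.95% and 2.21%), 6 and 7 in anti-IL10 (27.2% and 26.1%), 7 and 4 in TCT (16.1% and 14%) and 2 and 2 in anti-CD40 (10.9% and 10.7%). In TRUC, anti-IL10 and anti-CD40 these counts were near the shares of all genes. So were the rises in DSS and the falls in TCT and DNBS. The list medians were -0.26, 0.23, -0.07, -0.29, 0.10 and -0.15 (log2). Slc15a3, a lysosomal peptide carrier of macrophages, rose in 5 models, by 1.96 in anti-CD40 to 4.43 in DSS, and did not pass in DNBS (1.29). In DSS its SD was above its mean (84.6 ± 103 CPM), so that the mice differed widely. The direction of Slc15a3 was opposite to that of Slc15a1 of the same family. Slc7a7, a light chain of Slc3a2 for cationic amino acids, rose in 5 models, by 0.55 in DNBS to 1.15 in TRUC, and did not pass in DSS (0.20). Slc7a10, an exchanger of small neutral amino acids, fell in TRUC and TCT from low levels (group means of 0.978 to 0.0801 CPM and 1.13 to 0.153 CPM). Slc9a3, the sodium-proton exchanger that maintains the gradient used by Slc15a1, rose in DSS (1.5 ± 0.261 to 33.1 ± 13.3 CPM, mean and SD) and anti-IL10 (to 114 ± 131 CPM) and fell in TCT (28.4 ± 10 to 5.02 ± 2.91 CPM). In anti-IL10 the SD was above the mean. The opposite directions start from unlike control levels, and the TCT mean stayed above that of the wild-type controls.

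Enzymes that consume the carried amino acids formed a list of 14, all tested, of which 9 rose and 3 fell in TRUC (22.4% and 23.4% of all genes), 7 and 4 in DSS (17.7% and 16.3%), 3 and 1 in DNBS (3.95% and 2.21%), 6 and 4 in anti-IL10 (27.2% and 26.1%), 4 and 4 in TCT (16.1% and 14%) and 2 and 3 in anti-CD40 (10.9% and 10.7%). Nos2, which makes nitric oxide from arginine, rose in all 6 models, from 0.409 ± 0.215 CPM in the wild-type controls to 43.2 ± 47.1 CPM in DNBS and 493 ± 658 CPM in DSS (mean and SD, n = 3). The SD was above the mean in both models, so that the mice of each differed widely. Ido1, which degrades tryptophan, also rose in all 6, from 0.823 ± 0.151 CPM in the wild-type controls to 112 ± 176 CPM in DSS (n = 3) and 336 ± 328 CPM in anti-IL10 (n = 4), again with a wide spread. Arg1 rose in 5 and did not pass in anti-CD40 (0.60). Oat, an enzyme of ornithine, fell in all 6 models (-0.65 in DNBS to -1.63 in TCT), and Glul, which makes glutamine, fell in 5, with a DNBS value of -0.41 that did not pass.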

How the data were processed

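Poly(A) RNA of colon segments from 29 mice was analysed from a single deposited table of raw read counts per Ensembl gene. Per the labels, the authors made these counts without normalization, and the submitters' processing notes name Trimmomatic, HISAT2, HTSeq and GRCm38, with no versions. Whether counting used strand is not given in the sources used here. The 92 spike-in entries, all at 0, were left out. Groups and mouse numbers came from the sample labels, and no 2 replicates agreed within sampling noise (ratios of chi-square to its degrees of freedom from 3.42 to 86.2 in 33 pairs).

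Genes were kept where the mean over the 29 libraries reached 3 counts. edgeR 4.0.16 (R 4.3.3) fitted all 9 groups in 1 quasi-likelihood model with TMM scaling and no covariate. Each model was contrasted with its own control, F tests compared the 6 contrasts and the 3 controls, and p-values were adjusted by Benjamini-Hochberg over all 18616 genes at a threshold of 0.05. SEs were obtained from the fold change and F. DSS, DNBS and anti-IL10 share control mice, as do TCT and anti-CD40. At this depth 3 counts corresponded to 0.179 to 0.314 CPM. On simulated counts the fit recovered 57% (anti-IL10) to 73% (TRUC) of genes changed by 1 on the log2 scale, among 18412 and 18458 genes. The changed genes were drawn only from those above a set expected count in the control. The recovery does not cover genes below it, such as Slc3a1 in all 3 control groups and Slc7a2 in the Rag1-/- and Rag2-/- controls. Alternatives were RLE and upper quartile scaling, no filter or filterByExpr, DESeq2 1.42.0 or edgeR on 2 groups, an adjusted p of 0.01, another control, a replicate block and leaving out mice. Promoter sequences came from RefSeq (GRCm38.p6) and gene positions and exon lengths from GENCODE M21 (GRCm38). Matching used 54409 gene symbols. Other statistics used Python 3.11.15 with pandas 2.3.3 and numpy 2.4.6.

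The members and the gene lists were chosen with earlier results of these data known. Besides the 10 transporters, the text names from each list at most the 2 largest called rises and falls per model and genes called in 1 direction in at least 5 models, and for each transporter the 2 genes most correlated with it. Atf4 and Slc9a3 outside those ranks, and marker transcripts, were named after their values were seen. Some genes of the lists are not reported here.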

Additional observations from a re-analysis of the deposited data

Results flagged for a closer look

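The log2 change differed between the 6 models in the F test of equal contrasts (edgeR's quasi-likelihood model, adjusted over all genes) for Slc6a14 (0.011), Slc7a11 (0.000824), Slc1a5 (0.0207), Slc7a2 (3.25e-05), Slc3a1 (3.18e-05) and Slc7a9 (3.11e-05). Of all tested genes, 60.5% passed the same test. The models also differ in strain, control group and labels, and the part of each in the differences between models was not tested. Slc7a2 was called in DSS and TCT, Slc3a1 in anti-IL10, and Slc7a9 in anti-CD40, anti-IL10 and DSS.

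Slc1a5 in TRUC had a mouse far from the rest of its group: mouse 5 was at 144 CPM and the other 3 mice were at 132 CPM, so that the gap was 0.982 of the range of the group by Dixon's measure. Chance singles out about 1 in 20 groups in this way, and mouse 5 still lay below every control mouse.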

How the results depend on the processing

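Of 60 log2 changes, RLE scaling and filterByExpr altered the call of 0, upper quartile scaling of 1 and no filter of 1 (Slc7a1 in anti-IL10 in both, adjusted p 0.166 and 0.0618). The cause of the changes below was not tested, except where fewer mice or genes entered by construction. Upper quartile scaling moved the median of all genes to -0.137 in TRUC and -0.18 in anti-IL10, and turned the uncalled changes of Slc6a14 (-0.074) and Slc3a2 (-0.054) in anti-IL10. The F test of equal contrasts was lost for Slc1a5 under upper quartile scaling (0.0503) and no filter (0.0549), and was passed by Slc15a1 with no filter (0.0254). With DESeq2 on 2 groups, 6 transporters rose in TRUC, 1 fell in DNBS and 2 fell in anti-CD40, and 1105 genes rose and 772 fell in DNBS. Slc7a11 in DSS had no adjusted p there. With edgeR on 2 groups, 6 rose in TRUC, 3 rose in DSS, 0 rose and 1 fell in DNBS (355 and 157 of all genes) and 2 fell in anti-CD40. Slc7a5 in DNBS was then at 0.0512, and Slc7a2, Slc7a9 and Slc6a14 in DSS were at 0.0558, 0.0787 and 0.146. For the DESeq2 and edgeR fits on 2 groups, the shares of all genes in TRUC, DSS and anti-CD40 are not given here. The transporter counts of those models under these fits are therefore not set against a share. At an adjusted p of 0.01, 1 transporter fell in DSS, and the genes higher and lower were 2035 and 1834 in DSS, 175 and 46 in DNBS, 1963 and 1550 in TCT and 975 and 877 in anti-CD40, with 2890 lower in TRUC. Against the wild-type controls Slc7a9 in TCT was at -0.081, and against the Rag2-/- controls Slc3a2 in anti-CD40 was at 0.12. Calls also depended on the control group. Against the wild-type controls, TCT gained Slc7a1 (0.60, adjusted p 0.0163) and Slc3a1 (3.13, adjusted p 0.0343) and lost Slc7a2 (0.94, adjusted p 0.213). Against the Rag2-/- controls, anti-CD40 gained Slc7a1 (0.52, adjusted p 0.0398). Without anti-IL10 mice 3 and 4, an alternative chosen after seeing the data, Slc6a14 was at -0.53 and Slc7a1 was no longer called (0.37, adjusted p 0.168).

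Mouse numbers did not pair the samples (correlations of same-numbered deviations -0.0933 to 0.0944). With the replicate block, Slc6a14 in anti-IL10 was at -0.14 and Slc7a9 in TRUC passed (0.63, adjusted p 0.0364), and no other call of the 20 changed.

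Leaving out 1 mouse, 1701 of 1740 log2 values kept direction and side of the threshold. The ranges were -0.18 to 0.26 for Slc6a14 in anti-IL10, -0.27 to 0.046 for Slc15a1 in anti-CD40, -0.10 to 0.59 for Slc3a2 in DSS, -0.11 to 0.084 for Slc3a2 in TCT, -0.028 to 0.42 for Slc7a1 in TCT and -0.026 to 0.53 for Slc7a9 in TCT. The transporters called ranged from 1 to 3 lower in DSS, 0 to 2 lower in DNBS, 1 to 3 higher in anti-CD40 and 0 to 2 between the controls. Over all genes the counts ran from 1940 to 3450 higher and 1895 to 3458 lower in DSS, 156 to 1365 and 42 to 977 in DNBS, 928 to 2478 and 821 to 2514 in anti-CD40, 1726 to 2813 lower in TCT and 1375 to 2522 between the controls.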
